A study of Mus musculus with 48 samples.

Results

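The comparison asks whether diet alters the difference between 2 kinds of cigarette smoke in the mouse lung. For every gene it takes the difference between mainstream and sidestream smoke in diet-induced obese (DIO) mice and subtracts the same difference in regular weight (RW) mice. It rests on 32 of the 48 arrays of the series, which are the 8 arrays of each smoke-exposed group, and on all 12393 genes that the arrays name. Filtered-air arrays were not used, so a difference between the smokes does not say which of them moved a gene away from air. Each gene is represented by 1 probe set (a group of short probes for 1 transcript), chosen for its highest mean across all 48 arrays. The values are log2 signals, and 1 unit is a doubling.

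Every animal was a male C57BL/6 mouse, 15 weeks old when exposure began, and each array held RNA of the lung of 1 animal. The food of DIO mice held 60 kcal% fat and was given from the age of 6 weeks, which made 9 weeks before exposure, while RW mice ate standard food with about 5 kcal% fat. The 2 diets were different commercial products, so obesity and the composition of the food cannot be told apart. The groups are called DIO-MS and DIO-SS (obese, breathing mainstream or sidestream smoke), and RW-MS and RW-SS (regular weight, breathing mainstream or sidestream smoke). Exposure was through the nose alone for 5 hours a day on 8 days (5 days, a rest of 2 days and 3 more days), with lungs taken the day after the last one. The sources used here give no smoke concentrations, nor is it clear from a passing mention of an LPS (bacterial endotoxin) study in the protocol text whether any of these animals received LPS. Lung identity was clear on all 32 arrays: the surfactant gene Sftpc had log2 signals from 14.97 to 15.13, the club cell gene Scgb1a1 from 15.08 to 15.24 and the type 1 cell gene Ager from 13.16 to 13.75.

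Mainstream smoke is drawn through the cigarette by the smoker, and sidestream smoke comes off the smouldering tip. Smoke in the lung activates macrophages and epithelium, which release chemokines that recruit neutrophils and monocytes, and induces acute phase proteins and matrix-degrading enzymes. Obesity is known for a raised level of circulating inflammatory and acute phase proteins, with serum amyloid A among them.

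3 arrays stood apart from the rest before any comparison. DIO-MS-1, DIO-MS-6 and RW-SS-6 had mean correlations with the other arrays of 0.973 to 0.980, against 0.989 to 0.993 for the remaining 29. DIO-MS-1 and DIO-MS-6 carried high levels of interferon-induced genes, and RW-SS-6 carried high levels of fat genes, with values given below. Each main result is given with and without these 3 arrays. The 3′ minus 5′ signal of Actb, a measure of RNA breakdown, averaged 0.39 ± 0.12 in DIO-MS, 0.43 ± 0.07 in DIO-SS, 0.51 ± 0.13 in RW-MS and 0.48 ± 0.12 in RW-SS (SD, n = 8 each).

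Mainstream and sidestream smoke differed widely within each diet. In obese animals 2733 genes (22.1% of those tested) passed the test at an adjusted p below 0.05, of which 1312 (10.6%) were higher and 1421 (11.5%) lower with mainstream smoke. In regular weight animals 1805 genes (14.6%) passed, 1001 (8.08%) higher and 804 (6.49%) lower. The test was limma's moderated test over all 12393 genes with Benjamini-Hochberg adjustment, and a gene that passed it is called below. A value after ± is limma's standard error unless SD is written. For 718 genes (5.79%) the 8 DIO-MS arrays did not overlap the 8 DIO-SS arrays, and for 492 genes (3.97%) the RW-MS arrays did not overlap the RW-SS arrays.

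The differences in the 2 diets ran the same way. Called in both diets were 1202 genes, 44% of those called in obese and 66.6% of those called in regular weight animals, and 1201 of them had the same direction. The exception, named for that reason, was Myocd, a co-activator of muscle gene transcription, at -0.35 ± 0.12 in obese and 0.34 ± 0.12 in regular weight animals. Of the 1531 genes called in obese animals alone, 1418 had the same sign in regular weight animals. Of the 603 called in regular weight animals alone, 538 had the same sign in obese animals. Across the 12393 genes, which share arrays and are not independent, the 2 differences correlated at 0.826 (Pearson) and 0.657 (Spearman). Without the 3 arrays all 1153 genes called in both diets had the same direction.

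**Figure D1:**
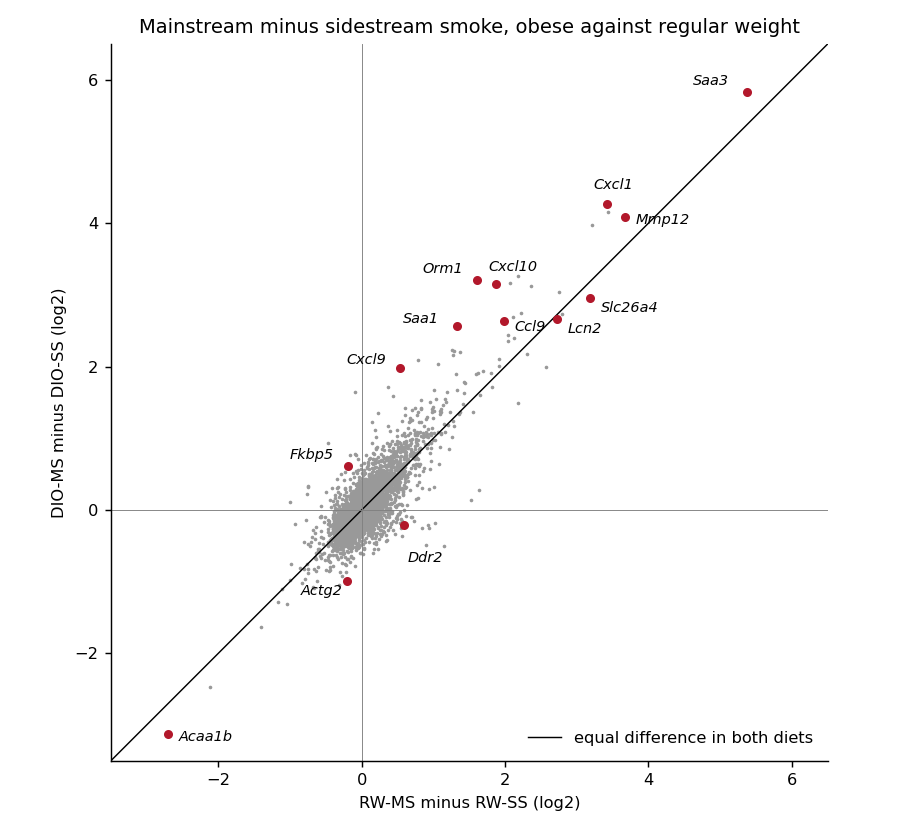
Mainstream minus sidestream smoke (log2) in obese animals on the vertical axis and in regular weight animals on the horizontal axis, 1 point per gene, with named genes in red and a line of equal differences. Most genes far from 0 lie near the line, and Saa1, Orm1 and Cxcl9 lie above it.

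The test of the difference between the diets called no gene (0 of 12393, 0%). At an unadjusted p below 0.05 there were 828 genes (6.68%), and the smallest adjusted p was 0.0807, for Saa1. Without the 3 arrays the count was also 0, with 676 genes (5.45%) at an unadjusted p below 0.05 and a smallest adjusted p of 0.166. Estimates were distributed about 0, with a median of -0.0063 and 47.6% of them positive. The 95% confidence interval lay within a 2-fold difference between the diets for 97.8% of genes and within 1.5-fold for 92.1%, or for 98.9% and 95.4% without the 3 arrays. The estimate itself was beyond 2-fold for 24 genes and for 12 without the 3 arrays. Of the 12393 genes, 9675 had a mean above log2 6 over the 48 arrays. Signals of the dimmer genes may be background, and a narrow interval there does not give the size of a difference in transcript.

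The count depended on which probe set stood for a gene. When all 20380 probe sets with 1 gene symbol were tested on their own, 3 (0.0147%) were called, all with positive estimates: both probe sets of Saa1 and 1 of 2 for Fkbp5. Without the 3 arrays 3 were called too, 1 each of Saa1, Saa4 and the copper pump Atp7b (0.46 ± 0.09, adjusted p = 0.0481). When all probe sets of a gene were averaged, 4 genes were called, which were Saa1 (1.70 ± 0.24, adjusted p = 0.000995), Fkbp5 (0.81 ± 0.15, 0.0298), Dner (-0.65 ± 0.13, 0.0388) and the adhesion molecule Clmp (0.51 ± 0.10, 0.0388). The test on every probe set was chosen after seeing the data, and the average had been planned as an alternative.

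**Figure D2:**
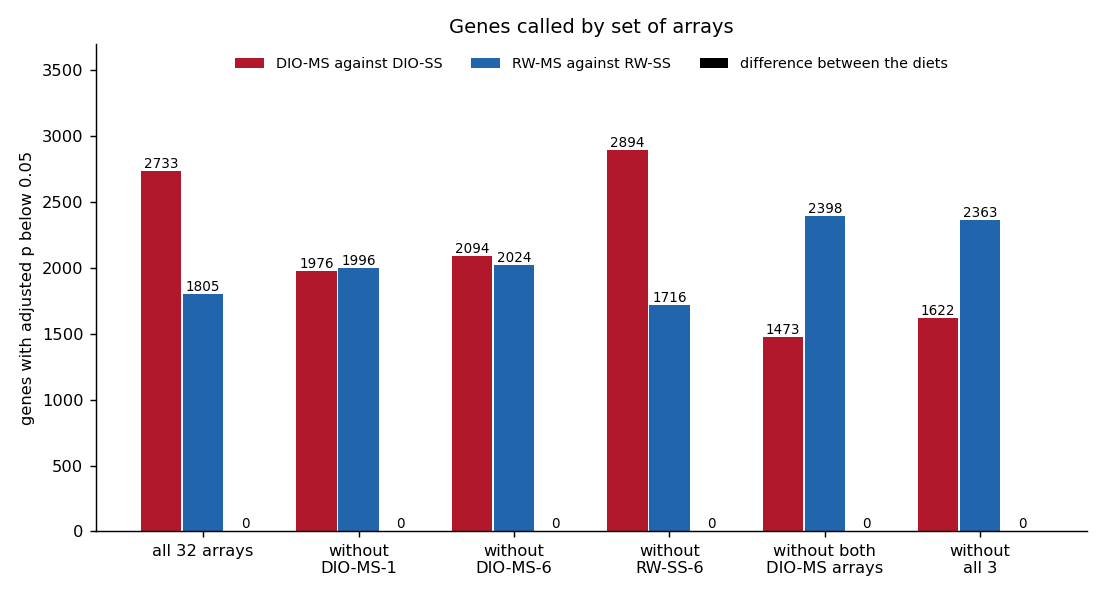
Genes with an adjusted p below 0.05 (vertical axis) for mainstream against sidestream smoke in obese animals (red), in regular weight animals (blue) and for the difference between the diets (black, 0 in each set), by the set of arrays used. Red exceeds blue with all 32 arrays and lies below it without DIO-MS-1 and DIO-MS-6.

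The larger count in obese animals was not seen when DIO-MS-1 and DIO-MS-6 were left out, but remained when they were weighted down. Without DIO-MS-1 the counts were 1976 in obese and 1996 in regular weight animals, and without DIO-MS-6 they were 2094 and 2024. Without both they were 1473 and 2398, and without RW-SS-6 alone 2894 and 1716. Without all 3 arrays 1622 genes (13.1%) were called in obese and 2363 (19.1%) in regular weight animals. With array weights, which gave the 3 arrays 0.216 to 0.302 and the other 29 arrays 0.632 to 2.12, the counts were 2357 in obese and 2057 in regular weight animals. The size of the differences changed in the same way. Over the 4186 genes called when the diets were averaged, the summed difference in obese animals was 1.21 times that in regular weight animals, and 63.6% of these genes had the larger difference in obese animals. The ratio was 1.08 without DIO-MS-1, 1.10 without DIO-MS-6, 1.22 without RW-SS-6 and 0.956 without all 3, where 43.8% of 3700 genes had the larger difference in obese animals.

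Saa1 encodes a serum amyloid A, an acute phase protein that circulates on lipoprotein particles, and had the smallest p for the difference between the diets among all genes and among all probe sets. On probe set 1450788_at it lay between 6.59 and 8.16 (median 7.37) in DIO-MS and between 3.26 and 3.67 (3.40) in DIO-SS. In regular weight animals it lay between 4.45 and 5.80 (5.60) in RW-MS and between 3.22 and 3.91 (3.44) in RW-SS. Every DIO-MS array was above every RW-MS array, while the 2 sidestream groups overlapped. Sidestream values in both diets were near the lowest signal on these 32 arrays, 2.54, and no detection calls were used here, so they may be background. A difference between the smokes is then a lower bound and the difference between the diets has no exact size, here and for other probe sets with sidestream signals below log2 6. With mainstream smoke Saa1 averaged 7.41 ± 0.51 in DIO-MS and 5.30 ± 0.58 in RW-MS on this probe set (SD, n = 8 each).

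Saa1 on this probe set was higher with mainstream than with sidestream smoke by a fitted 3.98 ± 0.19 in obese animals and 1.81 ± 0.19 in regular weight animals. The fitted difference between the diets was 2.17 ± 0.27, with a 95% interval of 1.61 to 2.72 and an adjusted p of 9.4e-05 over all probe sets (limma, n = 8 each). Without the 3 arrays it was 1.95 ± 0.26 with an adjusted p of 4.92e-04, and it was called in 32 of 32 fits that left out 1 array each.

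The other Saa1 probe set, 1419075_s_at, is brighter and stood for the gene under the rule of the comparison. Its ending marks probes able to match several transcripts, and the annotation gives it a transcript of the neighbouring gene Saa2. Its signal lay between 7.15 and 8.55 (median 7.79) in DIO-MS, 5.06 and 5.56 (5.24) in DIO-SS, 5.69 and 6.90 (6.73) in RW-MS, and 4.99 and 5.40 (5.12) in RW-SS. Again all 8 DIO-MS arrays were above all 8 RW-MS arrays. Saa1 on this set was higher with mainstream smoke by a fitted 2.56 ± 0.16 in obese and 1.33 ± 0.16 in regular weight animals. Its difference between the diets was 1.23 ± 0.23, with an adjusted p of 0.0807 over genes and 0.0408 over probe sets, or 1.03 ± 0.21 and 0.166 over genes without the 3 arrays. Over genes it was called when RW-MS-8 (adjusted p = 0.046), DIO-MS-5 (0.0359), DIO-MS-8 (0.00977) or DIO-SS-8 (0.0467) was left out.

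**Figure D3:**
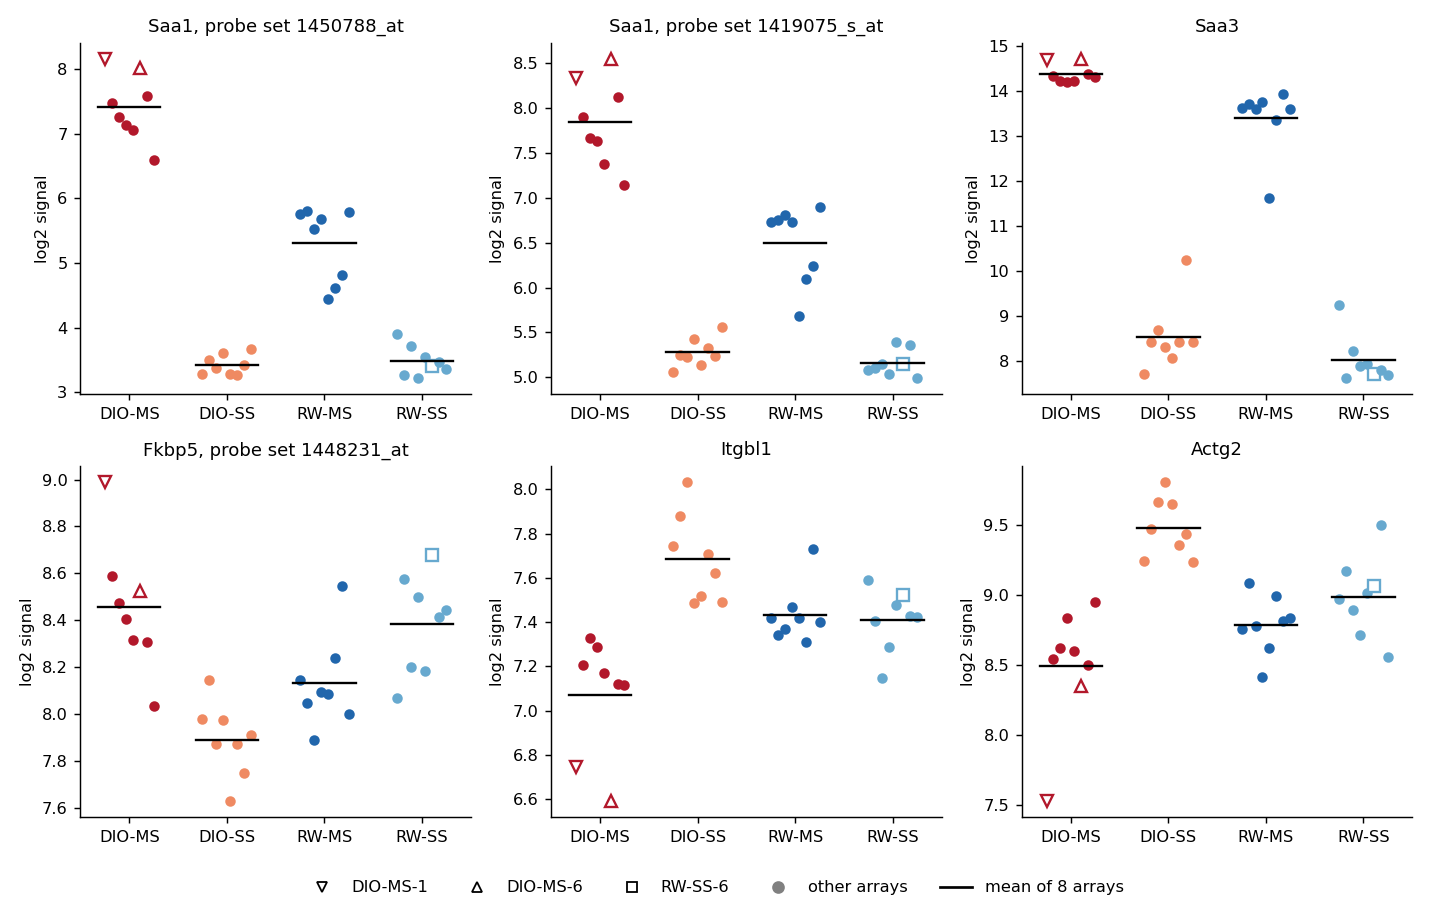
Log2 signal (vertical axis) on each array of DIO-MS, DIO-SS, RW-MS and RW-SS for 6 probe sets, with group means as lines and DIO-MS-1, DIO-MS-6 and RW-SS-6 as open symbols. DIO-MS lies above RW-MS on every array for both probe sets of Saa1, and DIO-MS lies below DIO-SS on every array for Itgbl1 and Actg2.

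Saa1, Saa2 and Saa3 lie close together on chromosome 7. Their promoters are shown because Saa1 had the smallest p for the difference between the diets. In the main test over genes Saa1 was not called for that difference. Its probe sets were called for it only when every probe set was tested on its own. The brighter Saa1 probe set is also annotated with an Saa2 transcript, and Saa3 is the local member of the family. The sequences are the 250 bases before each start in RefSeq (GRCm38.p6), for Saa1 chr7:46742981-46743230 on the minus strand, for Saa2 chr7:46751583-46751832 on the plus strand and for Saa3 chr7:46715677-46715926 on the minus strand. Capitals mark the motif TTGCNNAA, searched on both strands, a pattern bound by C/EBP factors, which drive acute phase genes in liver.
Saa1: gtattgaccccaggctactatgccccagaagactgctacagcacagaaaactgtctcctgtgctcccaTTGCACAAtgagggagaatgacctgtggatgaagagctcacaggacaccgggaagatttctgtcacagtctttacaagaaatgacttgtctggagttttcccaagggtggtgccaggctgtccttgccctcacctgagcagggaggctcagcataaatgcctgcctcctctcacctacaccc
Saa2: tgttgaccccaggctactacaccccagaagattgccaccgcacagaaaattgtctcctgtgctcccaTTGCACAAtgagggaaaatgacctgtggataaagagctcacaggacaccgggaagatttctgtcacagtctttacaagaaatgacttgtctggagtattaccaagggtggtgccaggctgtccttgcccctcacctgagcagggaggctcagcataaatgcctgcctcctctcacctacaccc
Saa3: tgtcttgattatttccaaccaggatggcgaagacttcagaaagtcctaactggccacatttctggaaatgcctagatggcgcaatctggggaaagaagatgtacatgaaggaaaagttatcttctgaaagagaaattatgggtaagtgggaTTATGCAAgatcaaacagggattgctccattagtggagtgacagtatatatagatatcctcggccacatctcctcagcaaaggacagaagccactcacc
The Saa1 and Saa2 promoters were identical at 94.8% of aligned positions, and those of Saa1 and Saa3 at 52.7%. The motif occurred 1 time in each, starting 182 bases before the Saa1 start, 183 before that of Saa2 and 99 before that of Saa3. It was present in 9.56% of 32851 mouse promoter windows of the same length, and a match is a description and no binding site.

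Saa2 and Saa3 were called higher with mainstream smoke in both diets. Saa3, the serum amyloid A that macrophages and epithelium make locally, lay between 14.18 and 14.71 (median 14.31) in DIO-MS and 7.72 and 10.24 (8.42) in DIO-SS, against 11.62 and 13.92 (13.60) in RW-MS and 7.62 and 9.24 (7.85) in RW-SS. It was 57.0-fold higher with mainstream smoke in obese and 41.5-fold higher in regular weight animals, with a difference of 0.46 ± 0.40 (interval -0.35 to 1.26, adjusted p = 0.874). The Saa3 signals in DIO-MS were near the highest signal on these 32 arrays, 15.24, and compression at the top of the scale was not tested. All 8 DIO-MS arrays were above all 8 RW-MS arrays, but the obese animals were also higher with sidestream smoke, on average 8.54 in DIO-SS and 8.02 in RW-SS. Saa2, whose probe set was dim, was 1.83-fold higher in obese and 1.49-fold higher in regular weight animals (difference 0.30 ± 0.16, adjusted p = 0.776). Its probe set is annotated with the same transcript as the brighter Saa1 probe set, which had a difference of 1.23 ± 0.23. Which of the 2 genes each set measures was not tested.

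Saa4, a serum amyloid A made at all times, had probe sets that gave different answers. On 1419318_at it lay between 5.80 and 8.51 in DIO-MS, 4.72 and 5.56 in DIO-SS, 5.06 and 5.82 in RW-MS, and 4.96 and 5.55 in RW-SS. The difference between the diets was 1.47 ± 0.35 (adjusted p = 0.25), and without the 3 arrays 1.001 ± 0.18 (0.0481). On 1419319_at it was 0.41 ± 0.23, with an adjusted p of 0.764. Saa4 was called higher with mainstream smoke in obese animals on both probe sets (1.70 ± 0.25 and 0.60 ± 0.16) and on neither in regular weight animals (0.22 ± 0.25 and 0.19 ± 0.16, adjusted p = 0.597 and 0.472). These Saa4 values were chosen for display after they had been seen.

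Of 14 measured acute phase genes, 13 were higher and none lower with mainstream smoke in obese animals, and 10 were higher and none lower in regular weight animals. Of all genes, 10.6% and 8.08% were higher in these comparisons. Without the 3 arrays 11 were higher in obese and 13 in regular weight animals, against 7.46% and 9.39% of all genes. Their median difference between the diets was 0.30, against -0.0063 for all genes, and 0.16 without the 3 arrays, and 11 of 14 were positive. The mean level of the list, as deviation from the mean of each gene, lay between 0.74 and 1.98 in DIO-MS, -0.91 and -0.54 in DIO-SS, 0.21 and 0.61 in RW-MS, and -1.11 and -0.60 in RW-SS. The 2 highest values were those of DIO-MS-6 and DIO-MS-1, and the other 6 DIO-MS arrays, at up to 0.99, were also above all RW-MS arrays.

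Hpx, which binds free haem in plasma, lay between 6.95 and 8.15 (median 7.41) in DIO-MS, 6.00 and 6.49 (6.35) in DIO-SS, 6.14 and 6.74 (6.43) in RW-MS, and 5.85 and 6.29 (6.05) in RW-SS. With all arrays it was called in obese animals, 2.25-fold higher, and not in regular weight animals (0.37 ± 0.14, adjusted p = 0.0677). Without the 3 arrays Hpx was called in both, at 1.93-fold (1.15e-07) and 1.3-fold (0.0105). The difference of 0.80 ± 0.19 had an adjusted p of 0.213, and it was 0.58 ± 0.15 (0.431) without the 3 arrays. Orm1 and Orm2, the orosomucoids, had differences of 1.60 ± 0.70 (adjusted p = 0.692) and 1.31 ± 0.43 (0.493), which were 0.40 and 0.63 without the 3 arrays. Both were chosen after their values were seen. Lcn2, an iron-trapping protein of neutrophils and epithelium, was 6.35-fold higher in obese and 6.60-fold higher in regular weight animals, with a difference of -0.05 ± 0.13.

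Fkbp5, a co-chaperone of the glucocorticoid receptor and one of its best known target genes, had estimates of opposite sign in the 2 diets. On the probe set of the rule it lay between 8.96 and 9.52 (median 9.15) in DIO-MS and 8.46 and 8.75 (8.57) in DIO-SS, with no overlap. In regular weight animals it lay between 8.68 and 9.35 (8.85) in RW-MS and 8.64 and 9.77 (9.04) in RW-SS, with wide overlap, and the highest RW-SS array was RW-SS-6. Fkbp5 was 1.53-fold higher with mainstream smoke in obese animals (0.62 ± 0.12, adjusted p = 0.00031) and did not pass the test in regular weight animals (-0.19 ± 0.12, adjusted p = 0.293). The difference was 0.81 ± 0.17, with an interval of 0.46 to 1.15 and an adjusted p of 0.0981, and 0.64 ± 0.15 without the 3 arrays.

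The dimmer Fkbp5 probe set, 1448231_at, gave 0.82 ± 0.15 with an adjusted p of 0.0346 over probe sets. It was called in 18 of 32 fits that left out 1 array, with adjusted p-values from 0.00486 to 0.0851, and missed the threshold without the 3 arrays at 0.0656. Of 16 glucocorticoid receptor targets, 4 were higher and 3 lower with mainstream smoke in obese animals, and 2 were higher and 5 lower in regular weight animals. Of all genes, 10.6% were higher and 11.5% lower in obese animals, and 8.08% higher and 6.49% lower in regular weight animals. The median difference of the list was 0.27, and 0.19 without the 3 arrays, with 12 of 16 members positive in each case. Zbtb16, a transcription factor of the list, was 2.01-fold lower with mainstream smoke in regular weight animals (-1.01 ± 0.28, adjusted p = 0.0141) and 0.11 ± 0.28 in obese animals (difference 1.12 ± 0.40, adjusted p = 0.582). The list also holds Lcn2 and the metallothionein Mt2, which inflammation induces too. Mt2 was 1.95-fold higher in obese and 1.34-fold higher in regular weight animals (difference 0.54 ± 0.19, adjusted p = 0.564, and 0.30 without the 3 arrays).

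The genes next in order of p did not pass the test of the difference. Dner, a membrane protein with EGF repeats that binds Notch, lay between 5.45 and 6.19 (median 5.91) in DIO-MS, 6.09 and 6.92 (6.37) in DIO-SS, 5.99 and 6.58 (6.13) in RW-MS, and 5.72 and 6.20 (6.05) in RW-SS. It was 1.45-fold lower with mainstream smoke in obese animals, on 7 of 8 arrays below every DIO-SS array, and not called in regular weight animals (0.18 ± 0.10, adjusted p = 0.257). The difference was -0.71 ± 0.14 with an adjusted p of 0.0981, -0.62 ± 0.14 without the 3 arrays, and it was called when DIO-SS-8 was left out (adjusted p = 0.0467).

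Itgbl1, a secreted protein with integrin-like repeats, lay between 6.59 and 7.33 (median 7.15) in DIO-MS, 7.49 and 8.03 (7.66) in DIO-SS, 7.31 and 7.73 (7.41) in RW-MS, and 7.15 and 7.59 (7.43) in RW-SS. The DIO groups did not overlap and the RW groups did. Itgbl1 was 1.53-fold lower with mainstream smoke in obese animals (-0.61 ± 0.09) and 0.02 ± 0.09 in regular weight animals. The difference was -0.64 ± 0.13 (adjusted p = 0.0981), and -0.52 ± 0.11 (0.166) without the 3 arrays. DIO-MS-6 and DIO-MS-1 were the lowest DIO-MS arrays, as the plot of single arrays shows.

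Pspc1, an RNA-binding protein of nuclear paraspeckles, differed in the other diet. It lay between 8.10 and 8.32 (median 8.16) in DIO-MS, 8.02 and 8.39 (8.26) in DIO-SS, 8.11 and 8.70 (8.46) in RW-MS, and 7.86 and 8.18 (8.01) in RW-SS. Pspc1 was 1.32-fold higher with mainstream smoke in regular weight animals (0.40 ± 0.07, 7 of 8 arrays above every RW-SS array) and -0.04 ± 0.07 in obese animals. Its difference was -0.45 ± 0.09 (adjusted p = 0.0981), -0.48 ± 0.10 without the 3 arrays, and it was called without RW-MS-6, the lowest RW-MS array (adjusted p = 0.023).

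Ddr2, a receptor kinase for fibrillar collagen, was 1.51-fold higher with mainstream smoke in regular weight animals (0.59 ± 0.13) and -0.22 ± 0.13 in obese animals. The difference was -0.81 ± 0.19 (adjusted p = 0.213), and RW-SS-6 was the lowest RW-SS array, at 8.25 against a median of 8.99. Ppard, a nuclear receptor for fatty acids, was 1.21-fold lower with mainstream smoke in regular weight animals (-0.28 ± 0.07) and 0.16 ± 0.07 in obese animals (difference 0.44 ± 0.10, adjusted p = 0.145). Ugt2b37, a glucuronosyltransferase, was dim, with signals of 3.02 to 3.62 on all 32 arrays, and had a difference of -0.33 ± 0.08 (adjusted p = 0.198). Fas, a death receptor and p53 target, was 1.34-fold lower with mainstream smoke in regular weight animals (-0.43 ± 0.09, adjusted p = 0.000686) and 0.05 ± 0.09 in obese animals (difference 0.47 ± 0.12, adjusted p = 0.248). Of the 10 genes with the smallest p, 6 were again among the first 10 without the 3 arrays.

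Smooth muscle markers were lower with mainstream smoke in obese animals. Of 11 measured, 9 were called lower there and 0 in regular weight animals, or 7 and 1 without the 3 arrays, where 11.5% and 6.49% of all genes were called lower with all 32 arrays. All 11 had a negative difference between the diets, with a median of -0.31, of -0.19 without both DIO-MS arrays and of -0.26 without all 3, and none was called for it. In bulk lung, fewer cells of a type and less RNA per cell cannot be told apart. Actg2, the enteric smooth muscle actin, lay between 7.52 and 8.95 (median 8.57) in DIO-MS and 9.23 and 9.80 (9.45) in DIO-SS, without overlap. It lay between 8.41 and 9.08 (8.79) in RW-MS and 8.56 and 9.50 (8.99) in RW-SS, with overlap.

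Actg2 was 1.99-fold lower with mainstream smoke in obese animals (-0.99 ± 0.14) and 1.15-fold lower, not called, in regular weight animals (-0.20 ± 0.14). The difference was -0.79 ± 0.20 (adjusted p = 0.236), and -0.62 ± 0.16 (0.431) without the 3 arrays. Cnn1, a calponin of contractile cells, and Acta2, the vascular smooth muscle actin, were also below every DIO-SS array on 8 of 8 DIO-MS arrays. Their differences between the diets were -0.65 ± 0.24 and -0.57 ± 0.15 (adjusted p = 0.593 and 0.28). The level of the whole list lay between -0.90 and 0.05 in DIO-MS, 0.10 and 0.45 in DIO-SS, -0.24 and 0.13 in RW-MS, and -0.22 and 0.33 in RW-SS. DIO-SS was the high group and DIO-MS-1 the lowest array.

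Cardiac muscle markers, which a lung sample can carry from pulmonary veins and the heart, also had negative differences for all 12 measured, with a median of -0.53. The median was -0.23 without DIO-MS-1, -0.82 without RW-SS-6, -0.27 without both DIO-MS arrays and -0.55 without all 3. None was called for either diet or for the difference, and the arrays of every group spread widely. The level of the list lay between -2.14 and 0.83 in DIO-MS, -0.89 and 1.16 in DIO-SS, -1.31 and 0.78 in RW-MS, and -1.20 and 1.89 in RW-SS. Nppa, the atrial natriuretic peptide, had the widest standard error of those named, at -1.38 ± 1.42. Their part in the smooth muscle result was not tested.

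**Figure D4:**
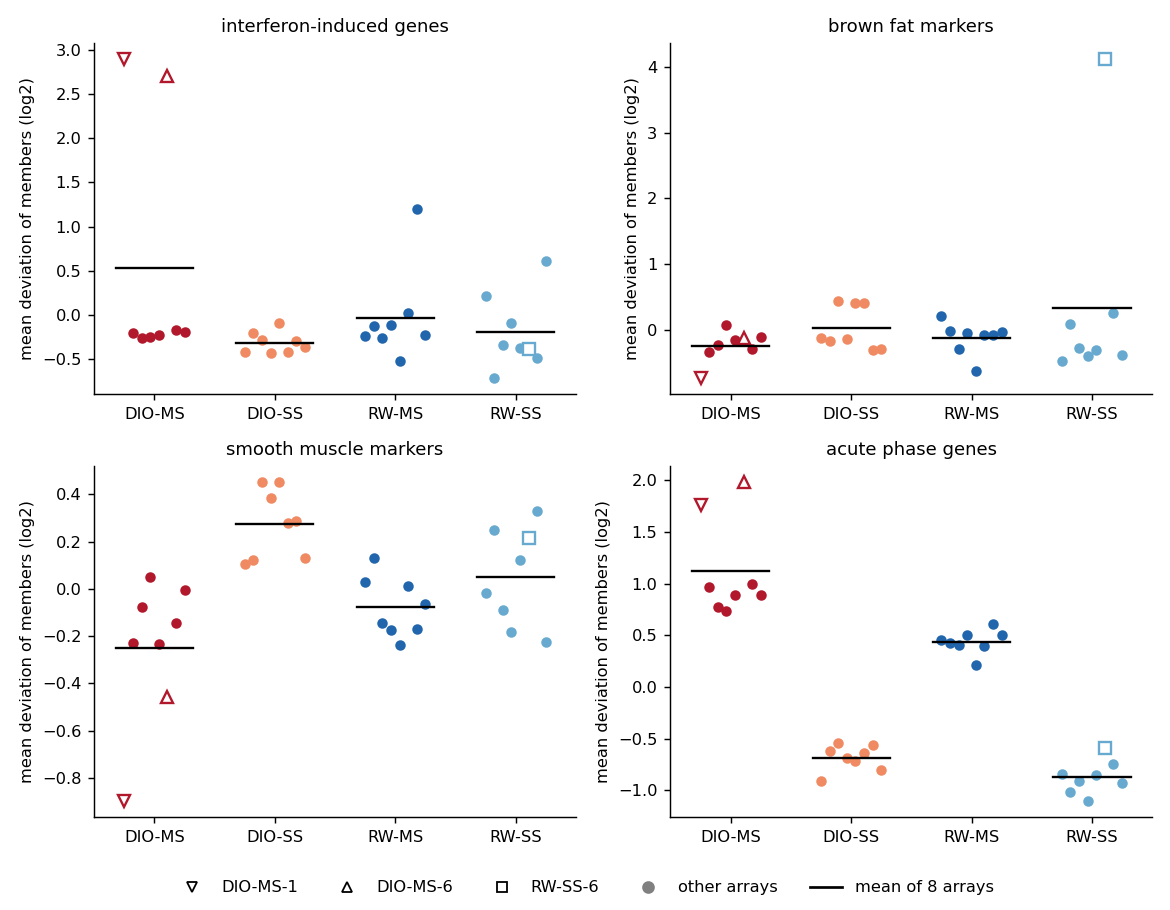
Mean deviation of the members of 4 gene lists from the mean of each gene (log2, vertical axis) on each array of DIO-MS, DIO-SS, RW-MS and RW-SS, with group means as lines. DIO-MS-1 and DIO-MS-6 are near 3 for interferon-induced genes, and RW-SS-6 is above 4 for brown fat markers.

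Interferon-induced genes depended on single arrays. All 26 measured members had a positive difference between the diets, with a median of 0.63, and none was called for it. Their level was 2.90 on DIO-MS-1 and 2.71 on DIO-MS-6, and between -0.26 and -0.17 on the other 6 DIO-MS arrays. It lay between -0.43 and -0.08 in DIO-SS, -0.52 and 1.20 in RW-MS, and -0.71 and 0.61 in RW-SS, with the highest RW-MS value on RW-MS-7. Without DIO-MS-1 the median difference was 0.29, without DIO-MS-6 it was 0.32, and without both it was -0.05. Without all 3 arrays it was -0.03, with 12 of 26 members positive.

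Mx1, an antiviral GTPase, lay between 4.44 and 9.51 (median 4.67) in DIO-MS, 4.33 and 4.52 (4.40) in DIO-SS, 4.41 and 7.05 (4.82) in RW-MS, and 4.13 and 4.77 (4.33) in RW-SS. Its difference was 0.82 ± 0.79 with all arrays and -0.35 ± 0.33 without the 3. Cxcl9 and Cxcl10, chemokines for T cells, had differences of 1.44 ± 1.06 and 1.29 ± 0.97, which were 0.08 and 0.04 without the 3 arrays. Cxcl10 was above every DIO-SS array on 8 of 8 DIO-MS arrays, and was 8.93-fold higher with mainstream smoke in obese animals (adjusted p = 0.00104), or 3.61-fold without the 3 arrays (0.0027). In regular weight animals it was 3.66-fold higher and did not pass the test (adjusted p = 0.0619), and without the 3 arrays it was 3.51-fold higher and passed (0.0017). A total of 84 genes had a difference between the diets that moved by more than 0.5 when the 3 arrays were left out, 83 of them downward, and 20 of these 84 were among the 26 interferon-induced genes.

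Median differences of T cell, NK cell and MHC class I genes were smaller without the same arrays. T cell markers were positive for 12 of 12 members (median 0.28, and 0.09 without DIO-MS-1) and for 5 of 12 without the 3 arrays (-0.01). MHC class I presentation genes were positive for 10 of 10 (median 0.25), and for 9 of 10 without the 3 arrays (0.08). With mainstream smoke 3 of these class I genes were called higher in obese animals and 0 in regular weight animals, and 2 and 0 without the 3 arrays. The shares of all genes called higher were 10.6% and 8.08%, and 7.46% and 9.39% without the 3 arrays. Psmb8, a subunit of the immunoproteasome, was 1.43-fold higher in obese animals (adjusted p = 0.0437) and 1.03-fold higher, not called, in regular weight animals. The call was lost without DIO-MS-1 (0.35, adjusted p = 0.133) or DIO-MS-6 (0.39, 0.124). NK cell markers had a median of 0.22, of 0.10 without DIO-MS-1 and of -0.02 without the 3 arrays. The T cell level was 1.26 on DIO-MS-1 and 0.83 on DIO-MS-6, against at most -0.01 on the other DIO-MS arrays.

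MHC class II and dendritic cell genes had a positive median with all arrays and without each or all of those 3. Of 13 measured, 10 were higher with mainstream smoke in obese animals, against 3 higher and 1 lower in regular weight animals. Without the 3 arrays it was 8 higher against 4 higher and 1 lower. The shares of all genes called higher were 10.6% in obese and 8.08% in regular weight animals, and 7.46% and 9.39% without the 3 arrays. The median difference was 0.19, and it was 0.12 without DIO-MS-1, 0.13 without DIO-MS-6, 0.12 without both and 0.16 without all 3. None was called for it. Cd74, the chaperone of class II molecules, lay between 13.78 and 14.04 in DIO-MS and 13.36 and 13.68 in DIO-SS, without overlap, against 13.66 and 13.83 in RW-MS and 13.19 and 13.85 in RW-SS. Its difference was 0.19 ± 0.09 (adjusted p = 0.746). B cell markers had a negative difference for 10 of 11 members, with a median of -0.22 and of -0.29 without the 3 arrays.

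Called chemokines and cytokines were higher with mainstream smoke in each diet, with 1 exception in obese animals, though fewer members were called in regular weight animals. Of 5 neutrophil-attracting chemokines, 4 were higher and 1 lower in obese animals, and 3 were higher in regular weight animals. Without the 3 arrays 3 were higher in each diet. The shares of all genes called higher were 10.6% in obese and 8.08% in regular weight animals, and 7.46% and 9.39% without the 3 arrays. Called lower were 11.5% and 6.49%, and 5.62% and 9.67% without the 3 arrays. The lower one, named for that reason, was Ppbp, a platelet chemokine, at -0.62 ± 0.15 (adjusted p = 0.00238) in obese and -0.40 ± 0.15 (0.0623) in regular weight animals, and without the 3 arrays 1 was called lower in each diet. Cxcl1 was 19.3-fold higher in obese and 10.8-fold higher in regular weight animals, and Cxcl5 was 17.8-fold and 10.8-fold higher in the same order of diets. Their differences were 0.84 ± 0.37 and 0.72 ± 0.52, and 0.50 and 0.33 without the 3 arrays, with no call. Cxcl1 lay between 9.14 and 11.38 (median 9.67) in DIO-MS, 5.21 and 5.99 (5.58) in DIO-SS, 7.67 and 9.72 (9.16) in RW-MS, and 5.00 and 6.35 (5.64) in RW-SS. Its highest DIO-MS array was DIO-MS-6 and its lowest RW-MS array RW-MS-5.

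Of 21 monocyte and lymphocyte chemokines, 15 were higher with mainstream smoke in obese and 11 in regular weight animals, or 14 and 13 without the 3 arrays. The shares of all genes called higher were 10.6% and 8.08%, and 7.46% and 9.39% without the 3 arrays. Their median difference of 0.40 was 0.08 without the 3 arrays. Ccl9, a macrophage chemokine of mice, was the member with the smallest p. It lay between 11.10 and 11.90 (median 11.28) in DIO-MS, 8.56 and 8.92 (8.72) in DIO-SS, 10.64 and 11.33 (11.10) in RW-MS, and 8.78 and 9.33 (9.04) in RW-SS. It was 6.24-fold higher with mainstream smoke in obese and 3.95-fold higher in regular weight animals, a difference of 0.66 ± 0.15 (adjusted p = 0.198) and of 0.46 ± 0.12 (0.415) without the 3 arrays. Ccl2 and Ccl3, which attract monocytes, had differences of 0.77 ± 0.46 and 1.09 ± 0.49, and 0.12 and 0.42 without the 3 arrays.

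Interleukins, growth factors and TNF genes had a median difference of 0.28, and of 0.02 without the 3 arrays. With mainstream smoke 14 of 17 were higher in obese and 9 of 17 in regular weight animals. Without the 3 arrays 11 were higher in each diet, and 1 was lower in regular weight animals. The shares of all genes called higher were 10.6% and 8.08%, and 7.46% and 9.39% without the 3 arrays. Il1rn, the natural antagonist of interleukin 1, was 4.10-fold higher in obese and 2.08-fold higher in regular weight animals (difference 0.98 ± 0.43, and 0.34 without the 3 arrays). Neutrophil markers had a median difference of 0.04, with 6 of 17 higher in obese and 4 in regular weight animals, or 6 and 5 without the 3 arrays.

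**Figure D5:**
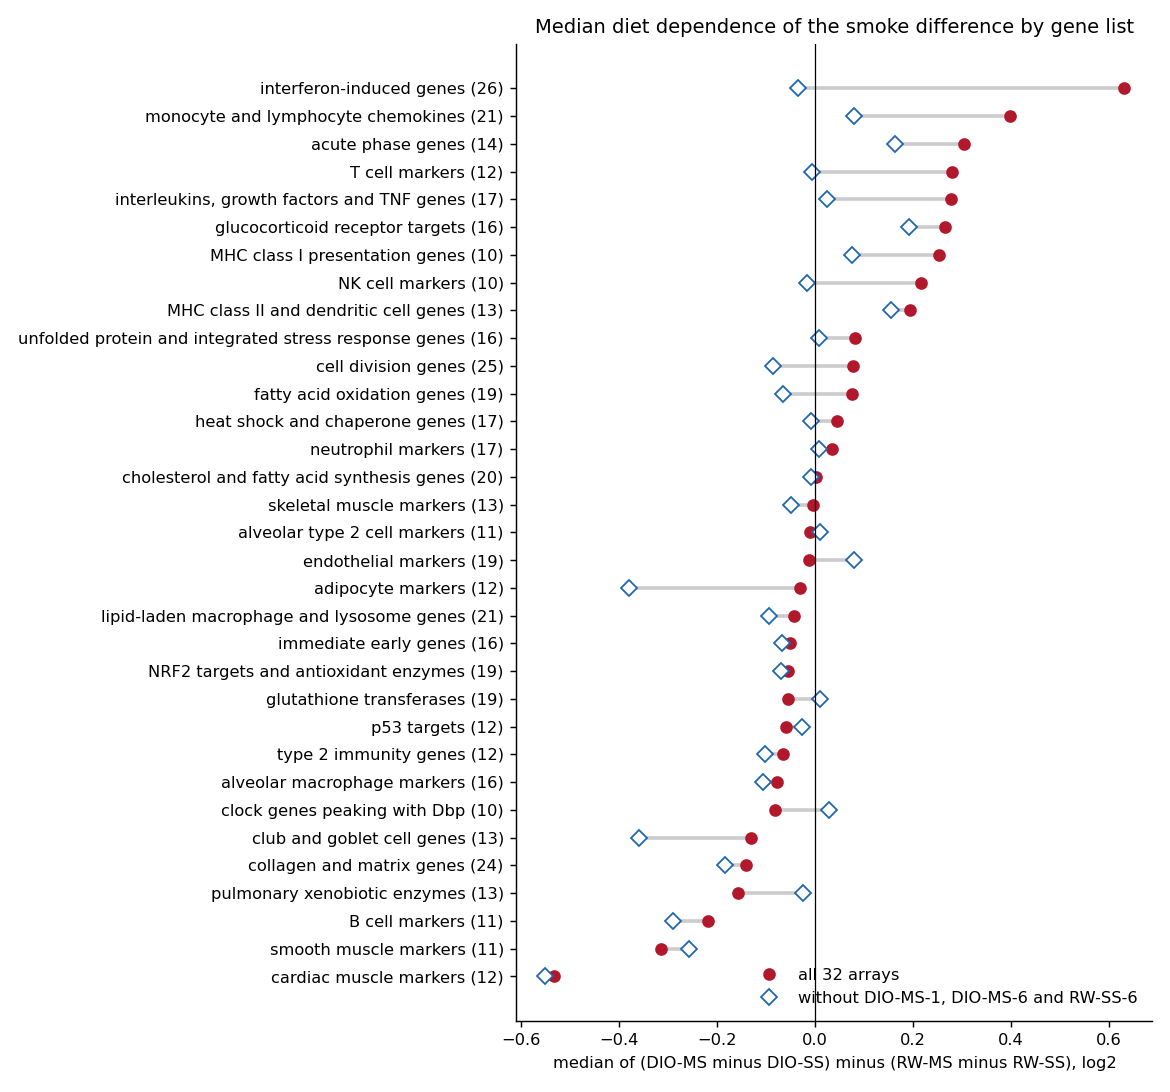
Median over the members of each gene list of the difference between the diets in mainstream minus sidestream smoke (log2, horizontal axis), for lists with at least 10 measured genes (number in brackets), with all 32 arrays (red) and without DIO-MS-1, DIO-MS-6 and RW-SS-6 (blue). Interferon-induced genes move to about 0, and smooth and cardiac muscle markers stay below 0.

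Macrophage genes differed strongly between the smokes in both diets. Mmp12, an elastase of macrophages, lay between 10.35 and 10.78 (median 10.72) in DIO-MS, 6.34 and 6.90 (6.53) in DIO-SS, 9.38 and 10.59 (10.27) in RW-MS, and 6.26 and 6.81 (6.62) in RW-SS. It was 16.9-fold higher with mainstream smoke in obese and 12.7-fold higher in regular weight animals, with a difference of 0.41 ± 0.17 (interval 0.07 to 0.75, adjusted p = 0.646). Without the 3 arrays the Mmp12 difference was 0.49 ± 0.18 (0.662). Ctsk, a lysosomal protease, was 6.68-fold and 6.96-fold higher in obese and regular weight animals (difference -0.06 ± 0.13, interval -0.33 to 0.21). Of 21 genes of lipid-laden macrophages and lysosomes, 15 were higher in each diet, and the median difference was -0.04. Without the 3 arrays 13 were higher in obese and 16 in regular weight animals, and the median was -0.09. Of 16 alveolar macrophage markers, 4 were higher and 7 lower in obese animals, and 5 were higher and 6 lower in regular weight animals. The shares of all genes were 10.6% higher and 11.5% lower in obese, and 8.08% and 6.49% in regular weight animals. Without the 3 arrays 5 alveolar macrophage markers were higher and 6 lower in each diet. The shares were then 7.46% higher and 5.62% lower in obese, and 9.39% and 9.67% in regular weight animals. Fabp1, a fatty acid carrier, was 5.54-fold lower in obese and 4.34-fold lower in regular weight animals, and Acaa1b, a peroxisomal thiolase, 8.71-fold and 6.51-fold lower. Their differences between the diets were -0.35 ± 0.28 and -0.42 ± 0.24, and -0.05 and -0.46 without the 3 arrays.

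Cell division genes were higher with mainstream smoke for 23 of 25 members in obese and 21 of 25 in regular weight animals. Without the 3 arrays 15 and 22 were higher. Their median difference was 0.08, with -0.02 without DIO-MS-1 and -0.09 without the 3 arrays. The shares of all genes called higher were 10.6% and 8.08%, and 7.46% and 9.39% without the 3 arrays. Mki67, a marker of dividing cells, was 2.37-fold and 2.42-fold higher in obese and regular weight animals. Cholesterol and fatty acid synthesis genes were higher for 12 of 20 in each diet, with a median difference of 0.00, and Cyp51, a sterol synthesis enzyme, was 1.60-fold and 1.56-fold higher. Collagen and matrix genes were higher for 15 of 24 in each diet and lower for 1 in obese animals, with a median of -0.14. Without the 3 arrays 11 were higher in obese and 17 in regular weight animals, and the median was -0.18. Slc26a4, an anion exchanger induced in inflamed airways, was 7.78-fold higher in obese and 9.11-fold higher in regular weight animals (difference -0.23 ± 0.30, and -0.48 without the 3 arrays).

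Smoke detoxification showed no called difference between the diets. Cyp1a1, the main target of the aryl hydrocarbon receptor, lay between 7.10 and 9.04 (median 8.52) in DIO-MS, 7.51 and 8.78 (7.93) in DIO-SS, 8.62 and 9.20 (8.87) in RW-MS, and 8.59 and 10.14 (8.98) in RW-SS. Mainstream and sidestream groups overlapped in each diet, and the difference was 0.47 ± 0.31 (adjusted p = 0.82), and 0.85 ± 0.25 (0.562) without the 3 arrays. With all arrays Cyp1a1 was called in neither diet (0.31 ± 0.22 in obese and -0.16 ± 0.22 in regular weight animals). Without the 3 arrays Cyp1a1 was called higher with mainstream smoke in obese animals (1.55-fold, adjusted p = 0.0193). In regular weight animals it was then -0.22 and not called (0.408). DIO-MS-6 was the lowest DIO-MS array. Cyp1b1, a second target, was 0.40 ± 0.19, and 0.12 ± 0.11 without the 3 arrays. Of 7 targets measured, 1 was higher and 1 lower with mainstream smoke in obese animals, and 0 were higher and 1 lower in regular weight animals. Of all genes, 10.6% were higher and 11.5% lower in obese animals, and 8.08% and 6.49% in regular weight animals, so single calls among 7 are near that share. Their median difference was 0.17, and 0.19 without the 3 arrays.

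NRF2 targets and antioxidant enzymes had a median difference of -0.05 over 19 members, with 5 higher and 4 lower in obese animals and 5 higher and 2 lower in regular weight animals. Without the 3 arrays 2 were higher and 3 lower in obese animals, and 5 higher and 3 lower in regular weight animals. The median was then -0.07, with 15 of 19 negative, against 13 with all arrays. Of all genes, 10.6% were higher and 11.5% lower in obese animals, and 8.08% and 6.49% in regular weight animals. Without the 3 arrays these shares were 7.46% and 5.62%, and 9.39% and 9.67%. Gclc, which makes the precursor of glutathione, was 1.27-fold higher in obese and 1.70-fold higher in regular weight animals (difference -0.42 ± 0.16, adjusted p = 0.622). The call in obese animals was lost without DIO-MS-1 (0.30, adjusted p = 0.0699) or DIO-MS-6 (0.32, 0.0563). Hmox1, which degrades haem, was 1.35-fold and 1.43-fold higher in obese and regular weight animals (difference -0.09 ± 0.18). Its call in obese animals was lost without the 3 arrays (1.16-fold, adjusted p = 0.136). In regular weight animals Hmox1 stayed called at 1.43-fold (8.93e-05), and the difference was then -0.30 ± 0.13 (0.803). Nqo1, a quinone reductase, had a difference of 0.05 ± 0.12.

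Glutathione transferases were lower with mainstream smoke for 12 of 19 in obese and 6 of 19 in regular weight animals, or 8 and 11 without the 3 arrays. Of all genes, 11.5% in obese and 6.49% in regular weight animals were called lower with all arrays, and 5.62% and 9.67% without the 3. Pulmonary xenobiotic enzymes were lower for 10 of 13 in obese and 4 of 13 in regular weight animals, or 9 and 9 without them. The larger number in obese animals was not seen without the 3 arrays, in these lists as over all genes, and the median differences were then 0.01 and -0.02.

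The named clock and heat shock genes had intervals that included 0. Dbp, a rhythmic transcription factor driven by the clock, was 1.80-fold higher with mainstream smoke in obese and 2.32-fold higher in regular weight animals (difference -0.36 ± 0.25, and -0.19 without the 3 arrays). Arntl, which encodes the clock activator Bmal1, was 1.75-fold and 1.82-fold lower in obese and regular weight animals. Among 10 clock genes that peak with Dbp, 3 were higher with mainstream smoke in obese and 4 in regular weight animals. Without the 3 arrays it was 6 and 4. Their differences between the diets ranged from -0.36 to 0.54, and none was called. The median was -0.08, and 0.03 without the 3 arrays. The shares of all genes called higher were 10.6% and 8.08%, and 7.46% and 9.39% without the 3 arrays. Hspa1b, a stress-induced chaperone, had a difference of 0.27 ± 0.32, which was 0.10 without DIO-MS-1 and 0.0007 without the 3 arrays. Sftpd, a surfactant protein, was 1.39-fold and 1.40-fold higher in obese and regular weight animals (difference -0.01 ± 0.05, interval -0.12 to 0.10).

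Fat genes showed the part of RW-SS-6. Ucp1, the heat-generating carrier of brown fat, lay between 4.33 and 4.99 (median 4.55) in DIO-MS, 4.56 and 5.14 (4.87) in DIO-SS, 4.47 and 5.42 (4.74) in RW-MS, and 4.41 and 12.97 (4.69) in RW-SS, where the highest array was RW-SS-6. Its difference was 0.74 ± 0.99 with all arrays and -0.30 without RW-SS-6. The level of 8 brown fat markers was 4.12 on RW-SS-6 and at most 0.43 on any other array, and their median difference was 0.12 with all arrays and -0.39 without RW-SS-6. Over 12 adipocyte markers the median difference was -0.03, and -0.42 without RW-SS-6. Adipoq, the fat hormone adiponectin, went with it at -0.48 ± 1.03 and -1.16.

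Of the 44 gene lists, those not named so far had median differences between -0.13 and 0.08 with all arrays. Club and goblet cell genes were the lowest of these, at -0.13 over 13 members and -0.36 without the 3 arrays, and none of them was called for the difference. The 2246 probe sets without exactly 1 gene symbol, tested apart, gave 0 calls for the difference between the diets by limma, 133 at an unadjusted p below 0.05 and a smallest adjusted p of 0.0641.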

How the data were processed

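Gene expression was measured on Affymetrix arrays, 1 per lung. The authors deposited log2 values from RMA, per the submitters' processing notes, which corrects background, quantile normalizes arrays and summarizes probes. Its version and the set of arrays normalized jointly are not given in the sources. Of 22690 probe sets, 64 were controls, and 20380 with 1 gene symbol in the array's annotation (20393 before controls left) gave 12393 genes. Each gene took the probe set with the highest mean over 48 arrays.

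In R 4.3.3 with limma 3.58.1, a mean per group was fitted to the 32 arrays (28 residual degrees of freedom, eBayes without trend and not robust). The contrasts were DIO-MS minus DIO-SS, RW-MS minus RW-SS and the first minus the second. Tests were two-sided, and p-values were adjusted by Benjamini-Hochberg over all genes. The procedure was tested on simulated data. No array was dropped or imputed except where stated. Labels call the animals biological replicates, and p-values measure the spread between them. The numbers of the animals do not pair arrays: of 48 same-numbered pairs, 16 correlated above 0.1 (range -0.388 to 0.461). The source labels of RW-MS-8, RW-MS-7, RW-SS-8 and RW-SS-7 carry numbers of other arrays. Their values differ from those arrays (at most 2 identical values), so each was kept as an animal.

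The comparison, the 44 gene lists and the fixed genes were chosen with earlier results of these data known. Named were the 10 genes with the smallest p, 16 fixed genes, up to 2 called members of each list by size, and the 3 largest estimates in 4 lists. Exceptions are marked. Alternatives left out each array and the 3 named ones, and used all 48 arrays, a replicate block, array weights, a trend with robust fitting, centred arrays, a floor of log2 6 and the mean over probe sets. Promoters came from RefSeq, aligned with Biopython 1.88. Arrays have no counting depth, and their number limits the precision.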

Additional observations from a re-analysis of the deposited data

Results flagged for a closer look

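Among the 26 genes that were fixed or had the smallest p, each was examined in 4 groups, and in 18 of 104 cases 1 array lay far from the other 7. The value is the gap of that array to its nearest neighbour divided by the range of the group, and chance alone gives about 1 in 20. Only 2 of the 18 cases involve DIO-MS-1, DIO-MS-6 or RW-SS-6, since the pair of DIO-MS arrays lie together. They are Ucp1 on RW-SS-6, highest of RW-SS at 0.9259, and Cyp1b1 on RW-SS-6, highest at 0.5438.

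RW-MS-7 lay apart most often. It was the highest RW-MS array for Mx1 (0.7465), Itgbl1 (0.6253), Cxcl10 (0.585), Fkbp5 (0.5819) and Hspa1b (0.5696), and the lowest for Nqo1 (0.6204). Leaving it out gave 0 genes called for the difference between the diets and 1316 for mainstream against sidestream smoke in regular weight animals, the lowest count of any single array left out.

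RW-MS-5 was the lowest RW-MS array for Saa3 (0.7567) and Mmp12 (0.6651) and the highest for Hmox1 (0.5987). RW-SS-1 was the highest RW-SS array for Cxcl9 (0.6996) and Saa3 (0.6267). The remaining cases were Cxcl9 on DIO-SS-5 (0.6838, highest), Saa3 on DIO-SS-7 (0.6185, highest), Cyp1a1 on RW-SS-8 (0.6093, highest), Ucp1 on RW-MS-1 (0.5836, highest) and Dner on DIO-SS-3 (0.5261, highest).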

How the results depend on the processing

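The count of genes called for the difference between the diets was 0 with all 32 arrays, without both DIO-MS arrays and without all 3. It was also 0 with array weights (smallest adjusted p 0.133), with trend and robust fitting (0.0841), with centred arrays (0.0722) and with a floor of log2 6 (0.0953). It was 1 with all 48 arrays (Saa1, adjusted p = 0.0087), 4 with the mean over probe sets, and 2 genes when every probe set was tested alone. Leaving out 1 array at a time gave 0 to 2, with a call in 5 of 32 fits, 1976 to 2962 genes in obese and 1316 to 2024 in regular weight animals. Without DIO-MS-1 and DIO-MS-6 the count in obese animals was 1473, and without the 3 arrays 1622. With the animal number as a replicate block the difference had 0 calls (smallest adjusted p 0.098, Dner), and the counts were 2682 and 1771, so the block changed none of these by over 1.5 times. Reversed signs were seen for differences near 0 or resting on the named arrays: Cxcl10 (-0.019 without both DIO-MS arrays), Mx1 (-0.36 without both, -0.35 without the 3), Ucp1 (-0.30 without RW-SS-6, the lowest of the fits that leave out 1 array, the highest being 0.78 without DIO-MS-1, and -0.22 without the 3), Psmb8 in regular weight animals (-0.013 with array weights) and Fas in obese animals (-0.028 without both and without the 3, -0.015 with array weights). That list is not complete, as the difference between the diets also changed sign for Ctsk, Arntl and Cyp51 without the 3 arrays. It went from -0.06 to 0.06 for Ctsk, from 0.06 to -0.02 for Arntl and from 0.04 to -0.03 for Cyp51. The cause of the reversals was not tested. Of the 1728 gene values classed under alternatives, 1682 were classed as keeping their direction and side of the threshold. A further 30 were classed as losing the call, 7 as gaining it and 9 as reversed.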
